A study of Mus musculus with 6 samples.

Results

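The FOXO factors and Tribbles regulators described here are 5 genes of 54838 identifiers in a table of read counts per gene from cultured mouse B cells. They are the transcription factor genes Foxo1, Foxo3 and Foxo4 and the pseudokinase genes Trib1 and Trib2, found in the table by symbol. The remaining mouse genes of both families, Foxo6 and Trib3, are given beside them. Libraries were made from cells given Cpd10 (3 libraries, replicates A to C) and from cells given the solvent DMSO alone (3 libraries, A to C). Cpd10 is called a Foxo1 inhibitor in the labels and was used at 1 µM. Both groups shared everything else. Splenic naive B cells were flow sorted from 10 male mice, 3 months old, 9 days after injection of sheep red blood cells, and the cells of 2 independent experiments were pooled. Culture lasted 5 days, in the presence of 80 ng/ml mouse interleukin 4 and 5 µg/ml anti-CD40 antibody, which mimic T cell help, and Cpd10 or DMSO was added on day 3 and left for 48 hours. Because the cells were pooled before culture, the libraries do not show how mice differ, and the labels do not say whether a replicate letter stands for a separate culture. P-values therefore reflect the spread among these libraries alone, part of which could be technical.

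FOXO proteins are forkhead transcription factors that are active in the nucleus when growth factor signalling is low. When the lipid kinase PI3K is switched on, the kinases AKT and SGK1 phosphorylate FOXO proteins, which are then bound by 14-3-3 proteins and kept in the cytoplasm. In B cells FOXO1 is needed for early development, for the expression of homing receptors on naive cells and for the dark zone programme of germinal centres. Tribbles proteins resemble kinases but have little or no catalytic activity. They act as scaffolds: TRIB1 and TRIB2 bring C/EBP transcription factors to the ubiquitin ligase COP1, all 3 mammalian Tribbles proteins have been linked to AKT or MAP kinase signalling, and TRIB2 has been reported to hold FOXO3 in the cytoplasm of human melanoma cells.

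Library totals ranged from 38110927 to 44859930 counts in Cpd10 and from 36873204 to 42798114 in DMSO. All 10 B cell markers examined were detected, with summed levels of 5820 to 6817 CPM (counts scaled to the normalised library size) in Cpd10 and 6280 to 7000 CPM in DMSO. Sums over the other marker lists were 2155 to 3087 CPM in Cpd10 and 2018 to 4361 CPM in DMSO for 6 plasma cell genes, 21.7 to 26.8 CPM in Cpd10 and 38.5 to 51.1 CPM in DMSO for 7 T cell genes, and 8.77 to 15.4 CPM in Cpd10 and 14.3 to 21.9 CPM in DMSO for 10 myeloid genes. The 7 stromal and endothelial genes summed to 4.93 to 10.1 CPM in Cpd10 and 11.9 to 20.7 CPM in DMSO. Sums were 0.431 to 4.10 CPM in Cpd10 and 2.09 to 5.72 CPM in DMSO for 5 NK cell genes, and 2.29 to 3.25 CPM in Cpd10 and 0 to 0.551 CPM in DMSO for 6 erythroid genes. The T cell sum was mostly the kinase gene Lck, the myeloid sum mostly Adgre1 and the stromal and endothelial sum mostly Pecam1. In Cpd10 the erythroid sum was mostly Hbb-bt. The T cell genes Cd3d, Cd3e, Cd3g, Cd4 and Cd8a did not exceed 0.385 CPM in any library. As in earlier work on these counts, 2 sets of libraries that cut across the groups were seen: Cpd10 A, DMSO A and DMSO C formed set 1, and Cpd10 B, Cpd10 C and DMSO B formed set 2. The split was read from the counts, not from the labels. By its rule 9 genes were at 3 counts or fewer throughout one set and at 50 or more throughout the other, against 1 gene for the next best split. Tests below are therefore given with the group alone and, where stated, with the library set as a second term, as an exploratory alternative. Cpd10 A is the only Cpd10 library of set 1 and DMSO B the only DMSO library of set 2. A set-term fit without either compares the groups within the other set alone, so it is not a check on that library only. Of the 6 plasma cell genes, 4 (Prdm1, Jchain, Sdc1 and Tnfrsf17) were higher in every library of set 1 than in any of set 2, and Irf4 and Xbp1 were not. The share of all tested genes that separate the sets in this way was not counted. The split was itself picked for the genes it separates, so the 4 genes do not tell what the sets are. Jchain, for example, was at 732, 262 and 224 CPM in Cpd10 A, B and C, against 730, 407 and 2057 CPM in DMSO A, B and C. Irf4 was at 889, 591 and 674 CPM in Cpd10 A, B and C, against 529, 495 and 617 CPM in DMSO A, B and C, and it was called higher in Cpd10 with the set term (log2 fold change 0.49, edgeR adjusted p = 0.0131) but not with the group alone (0.39, edgeR adjusted p = 0.619). With the set term, where 3.96% of all tested genes were called, edgeR called further markers. Lck (-0.76, adjusted p = 0.00216), Adgre1 (-0.80, 0.0252), Pecam1 (-1.43, 0.0356) and the NK cell gene Eomes (-2.87, 0.00924) were lower in Cpd10. Hbb-bt was higher (4.07, 0.00687). None of these was called with the group alone. Eomes was at 0.288 ± 0.124 CPM in Cpd10 and 2.00 ± 0.212 CPM in DMSO, with no overlap. The part of these marker differences in the results below was not tested.

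The promoter of Trib2 is shown because Trib2 had the largest fitted change of the 5 genes, and that of Foxo1 because its product is the stated target of Cpd10. Windows ran from 250 bases before to 50 bases after the RefSeq gene start (build GRCm38.p6), with Foxo1 at chr3:52268087-52268386 on the plus strand and Trib2 at chr12:15816736-15817035 on the minus strand. Both are printed 5′ to 3′ on the gene's strand, and capitals would mark a match to a FOXO motif.
Foxo1: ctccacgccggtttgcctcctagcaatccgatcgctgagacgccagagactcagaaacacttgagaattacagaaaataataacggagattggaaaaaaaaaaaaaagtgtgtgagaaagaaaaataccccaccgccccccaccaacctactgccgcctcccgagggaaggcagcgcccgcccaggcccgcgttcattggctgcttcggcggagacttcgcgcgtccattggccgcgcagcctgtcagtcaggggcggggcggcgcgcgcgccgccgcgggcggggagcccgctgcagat
Trib2: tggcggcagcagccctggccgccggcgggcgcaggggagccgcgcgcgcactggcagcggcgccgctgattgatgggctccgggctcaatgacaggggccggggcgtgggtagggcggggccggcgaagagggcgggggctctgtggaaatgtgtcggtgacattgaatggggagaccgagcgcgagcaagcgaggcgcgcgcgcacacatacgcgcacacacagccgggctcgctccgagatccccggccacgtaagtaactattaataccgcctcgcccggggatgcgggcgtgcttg

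Neither window contained GTAAACA, the core FOXO binding element, or CAAAACAA, the insulin-responsive form, on either strand, so no letter is in capitals. The Foxo3 window, at chr10:42276646-42276945 on the minus strand, held neither motif either. Among 32851 windows of the same length, 3.65% held GTAAACA and 2.51% held CAAAACAA. The windows were rich in G and C, at 61.3% for Foxo1, 75% for Foxo3 and 71% for Trib2, against a median of 52.7% over all windows. RefSeq windows for Foxo4 and Trib1 were not used here.

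None of the 5 genes passed the test between Cpd10 and DMSO when the group was the only term. By edgeR's quasi-likelihood test with Benjamini-Hochberg adjustment over 15136 tested genes, the calls among the 5 numbered 0, where 0.37% of all tested genes were called (0.317% higher and 0.0529% lower in Cpd10). Trib1 and Trib2 were more than 2-fold higher in Cpd10 by fitted value, and the 3 FOXO genes differed by less. A fitted difference of 2-fold or more was thus found for 2 of the 5, against 7.28% of all tested genes (3.21% higher in Cpd10). Before adjustment, p was under 0.05 for 3 of the 5 (Foxo4, Trib1 and Trib2), against 8.39% of all tested genes. For the same 3 genes every Cpd10 library lay above every DMSO library, which held for 7.31% of all tested genes. The 5 genes were chosen with earlier results of these data known, so these shares describe them and test nothing. DESeq2 called Trib1 and Trib2, in a run that called 1.42% of 25082 genes. That run skipped the low-count filter used for edgeR and limma-voom, so its share has a wider base than theirs, here and below. The limma-voom fit, which called 0.304% of all tested genes, called 0 of the 5.

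**Figure D1:**
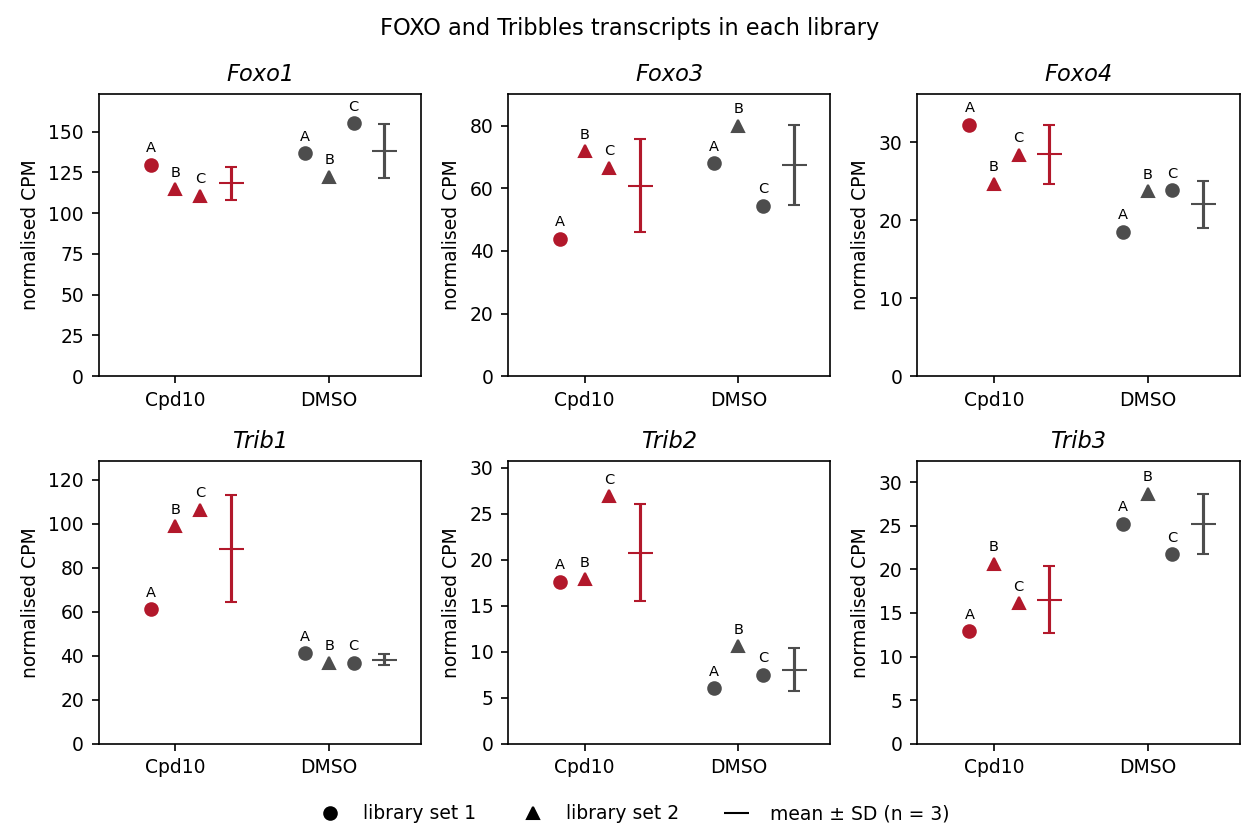
Normalised CPM of the 3 FOXO and 3 Tribbles genes in each library, Cpd10 left of DMSO, with the mean and SD of each group of 3; letters are replicates, and circles and triangles are library sets 1 and 2. Cpd10 lies wholly above DMSO for Foxo4, Trib1 and Trib2 and wholly below it for Trib3, and the groups overlap for Foxo1 and Foxo3.

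Foxo1 (ENSMUSG00000044167, chromosome 3, 52268336 to 52353221, plus strand, GRCm38) encodes the FOXO protein best known in B cells. It was at 130, 115 and 111 CPM in Cpd10 A, B and C, against 137, 122 and 155 CPM in DMSO A, B and C. The groups overlapped, since Cpd10 A was above DMSO B, and DMSO C was the highest library. Means were 118 ± 10.0 CPM in Cpd10 and 138 ± 16.5 CPM in DMSO (SD, n = 3 each). The log2 fold change was -0.22 (SE 0.12, 95% interval -0.50 to 0.05, edgeR adjusted p = 0.711). With the set as a term it was -0.14 (SE 0.08, edgeR adjusted p = 0.452). Cpd10 is described as acting on the FOXO1 protein, so the Foxo1 transcript is not a check of which libraries were treated.

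Foxo3 (ENSMUSG00000048756, chromosome 10, 42181841 to 42276755, minus strand) encodes a FOXO protein that shares targets with FOXO1 and promotes quiescence and cell death. Its level was 43.9, 71.8 and 66.6 CPM in Cpd10 A, B and C and 68.1, 80.0 and 54.4 CPM in DMSO A, B and C. The groups overlapped, with Cpd10 A the lowest library and DMSO B the highest. The log2 fold change was -0.15 (SE 0.21, 95% interval -0.65 to 0.35, edgeR adjusted p = 0.913), and without Cpd10 A it turned to 0.045. Within each library set the mean was lower in Cpd10: 43.9 CPM in Cpd10 and 61.2 CPM in DMSO in set 1, and 69.2 CPM in Cpd10 and 80.0 CPM in DMSO in set 2. With the set as a term the log2 fold change was -0.34 (SE 0.11, edgeR adjusted p = 0.122), still not called.

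Foxo4 (ENSMUSG00000042903, X chromosome, 101254528 to 101260873, plus strand) encodes a FOXO protein regulated by AKT and by JNK. It was at 32.3, 24.7 and 28.4 CPM in Cpd10 A, B and C, against 18.6, 23.8 and 23.8 CPM in DMSO A, B and C. The groups did not overlap, but the gap was narrow: the lowest Cpd10 library was 24.7 CPM and the highest DMSO libraries 23.8 CPM. The log2 fold change was 0.37 (SE 0.16, 95% interval 0.01 to 0.73, edgeR adjusted p = 0.584). It was 0.61 between the means of set 1 and 0.16 between those of set 2, with no test of the difference, and 0.39 with the set as a term (edgeR adjusted p = 0.186). With that term it moved to 0.17 without Cpd10 A, which leaves the comparison within set 2 alone. Without DMSO B, which leaves it within set 1 alone, the value was 0.61. Both values largely repeat the ratios of the set means. Foxo4 was called in none of the 6 set-term fits that left out 1 library.

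The last FOXO gene, Foxo6, which is known mainly from the nervous system, had 0 counts in all 6 libraries. A count of 0 allows up to 3 counts, or 0.0661 to 0.0826 CPM in a library of this depth, a limit that covers counting error only.

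Trib1 (ENSMUSG00000032501, chromosome 15, 59648350 to 59657099, plus strand) encodes a Tribbles protein that directs C/EBP proteins to COP1. Its level was 61.0, 98.7 and 106 CPM in Cpd10 A, B and C and 41.2, 36.7 and 36.7 CPM in DMSO A, B and C. All 3 Cpd10 libraries were above all 3 DMSO libraries, and Cpd10 A, the only Cpd10 library of set 1, was the lowest of its group. Means were 88.7 ± 24.2 CPM in Cpd10 and 38.2 ± 2.58 CPM in DMSO (SD, n = 3 each), so the spread was wider in Cpd10. The log2 fold change was 1.22 (SE 0.20, 95% interval 0.74 to 1.69, edgeR adjusted p = 0.0778), which did not pass. As a ratio of means on the log2 scale it was 0.65 in set 1 (61.0 CPM in Cpd10, 38.9 CPM in DMSO) and 1.48 in set 2 (102 CPM in Cpd10, 36.7 CPM in DMSO). Whether the change differs between the sets was not tested.

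Trib2 (ENSMUSG00000020601, chromosome 12, 15791727 to 15816922, minus strand) encodes the family member reported to restrain FOXO3 in human melanoma cells. It was at 17.6, 17.9 and 26.9 CPM in Cpd10 A, B and C, against 6.001, 10.6 and 7.49 CPM in DMSO A, B and C. The groups did not overlap: the lowest Cpd10 library, at 17.6 CPM, stood well above the highest DMSO library, at 10.6 CPM. Means were 20.8 ± 5.28 CPM in Cpd10 and 8.02 ± 2.33 CPM in DMSO (SD, n = 3 each). These levels rest on 704 to 1010 counts in Cpd10 and 268 to 384 counts in DMSO. The log2 fold change was 1.37 (SE 0.27, 95% interval 0.76 to 1.99, edgeR adjusted p = 0.112). The ratio of means on the log2 scale was 1.38 in set 1 (17.6 CPM in Cpd10, 6.75 CPM in DMSO) and 1.08 in set 2 (22.4 CPM in Cpd10, 10.6 CPM in DMSO). Here, unlike for Trib1, set 1 had the larger value. Each ratio has a single library on one side, Cpd10 A in set 1 and DMSO B in set 2. A difference between the sets was not tested for Trib2 either.

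Trib3 (ENSMUSG00000032715, chromosome 2, 152337422 to 152344032, minus strand), a stress-induced Tribbles gene and target of ATF4, lay in the opposite direction. It was at 12.9, 20.6 and 16.1 CPM in Cpd10 A, B and C and 25.2, 28.7 and 21.7 CPM in DMSO A, B and C. Every Cpd10 library was below every DMSO library, as for 7.32% of all tested genes, although the highest Cpd10 library, 20.6 CPM, was close to the lowest DMSO library. The log2 fold change was -0.61 (SE 0.20, 95% interval -1.07 to -0.15, edgeR adjusted p = 0.415).

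With the library set as a second term, Trib1 and Trib2 were called higher in Cpd10. In log2 terms Trib1 differed by 1.06 (SE 0.19, edgeR adjusted p = 0.0290) and Trib2 by 1.23 (SE 0.19, edgeR adjusted p = 0.00233), while the 3 FOXO genes were not called. In that fit 3.96% of all tested genes were called, 2.32% higher and 1.64% lower in Cpd10. Trib3 was called lower (-0.75, SE 0.14, edgeR adjusted p = 0.0109). The Trib1 call was lost without Cpd10 B (adjusted p = 0.0955) or without DMSO C (adjusted p = 0.0859), the Trib2 call without Cpd10 A (adjusted p = 0.200), and the Trib3 call without Cpd10 A (adjusted p = 0.313), Cpd10 C (adjusted p = 0.0712) or DMSO B (adjusted p = 0.0782), all by edgeR. Without Cpd10 A or DMSO B this fit compares the groups within a single set, so a call lost there also had fewer libraries to rest on. The sets were read from these same counts, so p-values with the set term are exploratory.

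**Figure D2:**
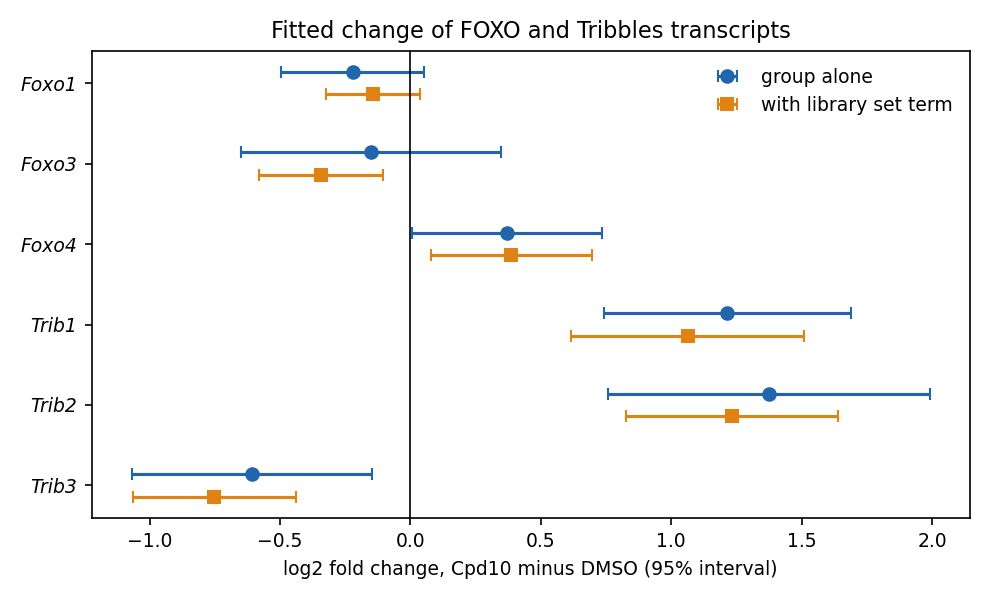
Log2 fold changes (Cpd10 minus DMSO) with 95% intervals for the 6 genes from edgeR with the group alone (circles) and with the library set as a second term (squares), 3 libraries a group. The intervals of Foxo4, Trib1 and Trib2 lie above 0 in both fits and that of Trib3 below 0. The Foxo3 interval lies below 0 with the set term only, and the Foxo1 interval includes 0 in both fits. The intervals are not adjusted for the number of genes.

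Per length of exon, the order of the levels differed between the groups. The values below are levels in CPM per kilobase of all annotated exons, mean ± SD with n = 3. In Cpd10, Trib1 (14.2 ± 3.88) and Foxo1 (13.7 ± 1.16) were highest and overlapped. Foxo4 (8.17 ± 1.09), Foxo3 (8.03 ± 1.96) and Trib3 (7.78 ± 1.82) followed with overlapping ranges, and Trib2 was lowest (4.79 ± 1.22), overlapping with Foxo3 and Trib3. In DMSO, Foxo1 was highest (15.9 ± 1.91), followed by Trib3 (11.9 ± 1.63) and Foxo3 (8.91 ± 1.69), which overlapped each other, then by Foxo4 (6.33 ± 0.868) and Trib1 (6.11 ± 0.414), which also overlapped, and Trib2 was lowest (1.85 ± 0.537) in each library.

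The sum over the FOXO genes varied little, at 30.0, 29.8 and 29.7 CPM per kilobase in Cpd10 A, B and C against 30.1, 31.5 and 31.9 in DMSO A, B and C. Within that sum Foxo1 took 45.7 ± 3.62% in Cpd10 and 51.1 ± 5.76% in DMSO, Foxo3 took 26.9 ± 6.68% in Cpd10 and 28.6 ± 5.63% in DMSO, and Foxo4 took 27.4 ± 3.52% in Cpd10 and 20.3 ± 2.22% in DMSO (SD, n = 3). The make-up of the Tribbles family differed more. Trib1 made up 52.6 ± 3.16% of Tribbles transcripts per length in Cpd10 and 31.0 ± 3.54% in DMSO, Trib2 made up 18.1 ± 3.68% in Cpd10 and 9.28 ± 2.13% in DMSO, and Trib3 made up 29.3 ± 4.21% in Cpd10 and 59.7 ± 2.25% in DMSO. Per length, Trib3 was thus the leading Tribbles transcript in all 3 DMSO libraries and Trib1 in all 3 Cpd10 libraries. In CPM not divided by length, Trib1 was above Trib3 in every library. In DMSO A, B and C it was at 41.2, 36.7 and 36.7 CPM, against 25.2, 28.7 and 21.7 CPM for Trib3. The order of these genes in DMSO therefore depends on the exon lengths used. In bulk RNA, a change in the number of cells of a kind and a change in RNA per cell cannot be told apart.

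**Figure D3:**
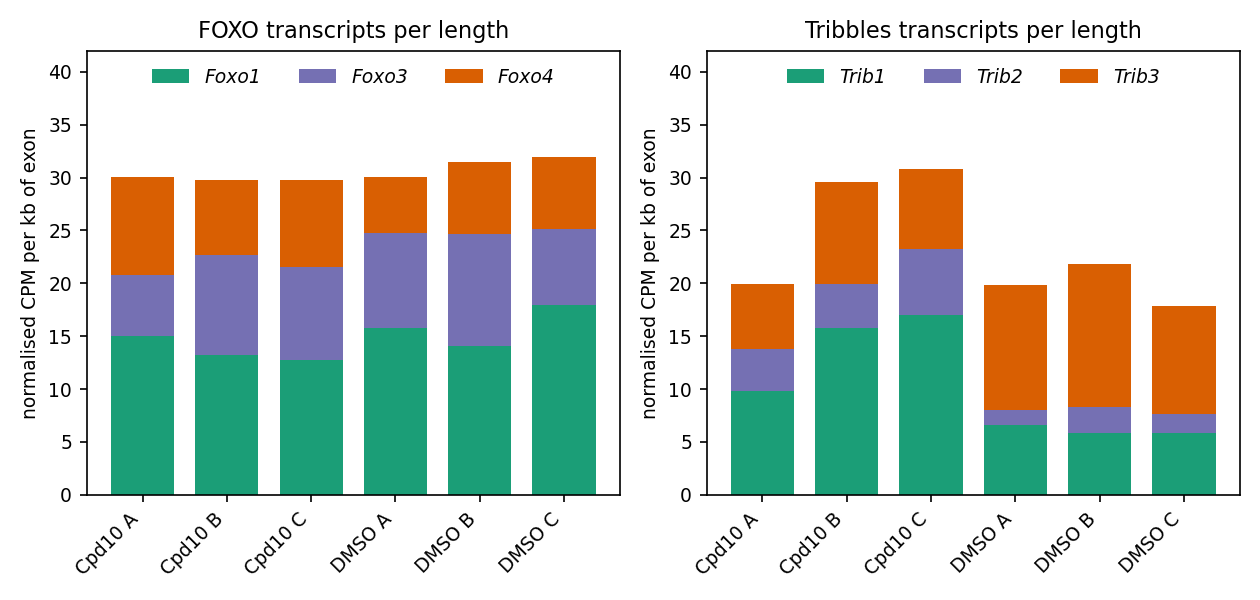
Stacked levels of FOXO (left) and Tribbles (right) transcripts in each library, in normalised CPM per kilobase of exon, Cpd10 libraries left of DMSO libraries. The FOXO bars have nearly the same height in all 6 libraries, while Trib1 is the largest Tribbles segment in each Cpd10 bar and Trib3 in each DMSO bar.

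Genes that overlap these loci contributed few counts. Gm20402, an antisense gene that shares 674 exon bases with Foxo1, had 0 counts in all libraries, and Gm38034, within a Foxo1 intron, had 10 counts in DMSO A and 0 elsewhere. Mir6387, within a Trib2 intron, had 0 counts throughout.

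The genes whose log2 CPM ran most like each of the 5 genes over the 6 libraries, out of 8488 compared at a mean of 10 CPM or more, are given by their Pearson r as a description. For Foxo1 they were Phospho2 (r = 0.995), the saposin precursor gene Psap (0.993) and Magt1 (0.992), a magnesium transport and glycosylation factor. For Foxo3 they were Nob1, a ribosome assembly factor (0.997), Ccs, the copper chaperone of superoxide dismutase (0.993), and Lrrc28 (0.992). For Foxo4 they were Rap2c (0.988), Dcun1d2 (0.983) and G2e3 (0.977). For Trib1 they were Lrrn3 (0.996), Rnf126 (0.993) and the phosphoinositide kinase gene Pip4k2a (0.991). For Trib2 they were Elk4, an ETS transcription factor of the serum response pathway (0.994), Med30, a Mediator subunit (0.988), and Rassf2 (0.983).

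Among these, Lrrn3 had the widest range as a ratio of highest to lowest, and it ordered the 6 libraries as Trib1 did. Lrrn3 was at 31.9, 80.5 and 92.0 CPM in Cpd10 A, B and C and at 11.7, 10.3 and 8.13 CPM in DMSO A, B and C. With the group alone its log2 fold change was 2.76 (edgeR adjusted p = 0.0601), and Elk4, nearest to Trib2, had 0.52 (adjusted p = 0.125). With the set term, where 3.96% of all tested genes were called, Elk4 was called (edgeR adjusted p = 0.00885) and Lrrn3 was not (0.0955). All 15 of these genes were measured on the same 6 libraries, share their depth and sets, and were picked for their likeness, so these values test nothing.

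Of the kinases and phosphatases that act on FOXO proteins, none was called with the group alone. All 22 listed genes were tested, and 0 rose and 0 fell by edgeR, which called 0.37% of all tested genes. Before adjustment 3 had p under 0.05, as did 8.39% of all tested genes. The median log2 fold change was -0.09, against -0.0012 over all tested genes. DESeq2 and limma-voom also called 0 of the list, and 1.42% and 0.304% of all genes they tested. Sgk1, a kinase that phosphorylates FOXO proteins, was at 1.94 ± 0.414 CPM in Cpd10 and 4.03 ± 1.25 CPM in DMSO (log2 fold change -1.05, edgeR adjusted p = 0.449). Pik3r5, a regulatory subunit of PI3K gamma, was at 29.2 ± 10.3 CPM in Cpd10 and 51.0 ± 8.09 CPM in DMSO (-0.81, adjusted p = 0.459; once the set term was included, edgeR gave 0.00109). Inpp4b, a phosphoinositide phosphatase, was at 12.7 ± 2.20 CPM in Cpd10 and 19.0 ± 4.32 CPM in DMSO (-0.58, edgeR adjusted p = 0.501). Pik3r5 was the only gene of this list called with the set term, where 3.96% of all tested genes were called. The list had 2 calls with that term when DMSO A, DMSO B or DMSO C was left out. Over all tested genes those fits called 907, 437 and 622, in that order.

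Of 30 genes for proteins that bind or modify FOXO proteins, all were tested and none was called by edgeR, DESeq2 or limma-voom with the group alone. These tools called 0.37%, 1.42% and 0.304% of all genes they tested. The median log2 fold change was 0.01, and p before adjustment was under 0.05 for 1 of the 30, against 8.39% of all tested genes. Skp2, the F-box protein that marks FOXO1 for degradation, was at 16.4 ± 2.18 CPM in Cpd10 and 12.3 ± 1.03 CPM in DMSO (0.42, edgeR adjusted p = 0.529). Cdk1, the mitotic kinase, was at 98.0 ± 16.9 CPM in Cpd10 and 78.5 ± 7.20 CPM in DMSO (0.32, edgeR adjusted p = 0.603). It was the 1 gene of the list called with the set term, where 3.96% of all tested genes were called. In that fit Cdk1 had an edgeR adjusted p of 0.0289. That call was lost in 4 of the 6 fits that left out 1 library, those without Cpd10 A, Cpd10 B, Cpd10 C or DMSO B. There the list had 0 calls, and the calls over all tested genes numbered 130, 343, 225 and 437, in that order. Ikbkb and Crebbp, a kinase and an acetyltransferase of FOXO proteins, had 0.31 and -0.23 (adjusted p = 0.733 and 0.759).

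Of 20 genes for partners and substrates of Tribbles proteins, 18 were tested and none was called by these 3 tools with the group alone. Over all genes tested, edgeR called 0.37%, DESeq2 1.42% and limma-voom 0.304%. Before adjustment p was under 0.05 for 2 of the 18, against 8.39% of all tested genes. The median log2 fold change was -0.04. Cdc25b, a cell cycle phosphatase, was at 86.9 ± 18.0 CPM in Cpd10 and 136 ± 38.3 CPM in DMSO (-0.65, edgeR adjusted p = 0.515). With the set term, where 3.96% of all tested genes were called, it was the list's only call (edgeR adjusted p = 0.0249). Without Cpd10 A, Cpd10 B or Cpd10 C the call was lost and the list had 0, and without DMSO B it had 2. Calls over all tested genes in these fits numbered 130, 343, 225 and 437, in that order. Cebpb, which encodes a C/EBP factor, was at 5.83 ± 1.67 CPM in Cpd10 and 9.05 ± 1.08 CPM in DMSO (-0.63, adjusted p = 0.574). Tcf7l2, a Wnt pathway transcription factor, and Map2k7, a kinase of the JNK pathway, had -0.80 and -0.17 (adjusted p = 0.750 and 0.768). Cop1, the ligase that Tribbles proteins recruit and named here after its value was seen, was at 49.7 ± 1.44 CPM in Cpd10 and 52.5 ± 3.23 CPM in DMSO (-0.08, adjusted p = 0.902).

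Of 46 genes reported as FOXO targets, 43 were tested and 1 rose, the death gene Bcl2l11, while 0 fell by edgeR with the group alone. Over all tested genes 0.37% were called in that fit, 1.42% by DESeq2 and 0.304% by limma-voom. The list's calls numbered 1 with limma-voom (Bcl2l11) and 5 with DESeq2, of which 2 were higher in Cpd10 (Bcl2l11 and Il7r) and 3 lower (Klf2, Ccr7 and the death gene Pmaip1). Before adjustment 10 of the 43 had p under 0.05, where 8.39% of all tested genes did, and the median log2 fold change was -0.09. The list was chosen with earlier results of these data known, so that comparison is a description and not a test. Bcl2l11 was at 303, 289 and 291 CPM in Cpd10 A, B and C, against 158, 152 and 158 CPM in DMSO A, B and C, with log2 ratios of the means of 0.94 in set 1 and 0.93 in set 2 (fitted log2 fold change 0.91, SE 0.08, edgeR adjusted p = 0.0125). The call was lost in 4 of the 6 fits that left out 1 library, those without Cpd10 B, Cpd10 C, DMSO A or DMSO C. In those fits the calls over all tested genes numbered 1, 0, 5 and 1, in that order. The log2 fold change of Bcl2l11 in them was 0.92 to 0.93. Klf2, a factor of lymphocyte quiescence, Ccr7, a homing receptor, and Cxcr4, the dark zone receptor, differed by -1.46, -1.11 and -0.52 on the log2 scale (adjusted p by edgeR 0.120, 0.227 and 0.226). Il7r, the interleukin 7 receptor gene, named like Pmaip1 after its values were seen, was at 21.5, 36.1 and 43.3 CPM in Cpd10 A, B and C, against 0.224, 4.35 and 1.36 CPM in DMSO A, B and C. The groups did not overlap, and the difference for Il7r was 4.10 on the log2 scale with an SE of 0.95, which did not pass (adjusted p by edgeR 0.260, and 0.102 after adding the set term). With the set term, where 3.96% of all tested genes were called, 1 was higher (Bcl2l11) and 3 lower: Cxcr4 (-0.55, adjusted p = 0.0282) and, named after their values were seen, Irs2 (-0.59, 0.0117) and the catalase gene Cat (-0.40, 0.0142). Leaving out 1 library moved these 4 calls to 1 without Cpd10 A or Cpd10 C, 3 without Cpd10 B, 9 without DMSO A and 6 without DMSO C. The number stayed at 4 without DMSO B. Calls over all 15740 to 15808 tested genes moved too. They numbered 130, 343 and 225 without Cpd10 A, B and C, and 907, 437 and 622 without DMSO A, B and C. The list counts are to be read beside those numbers. Bcl2l11 was called in all 6 of these fits. The Cxcr4 call was lost without any 1 Cpd10 library, the Irs2 call without Cpd10 A, Cpd10 C or DMSO B, and the Cat call without any 1 Cpd10 library or DMSO B.

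**Figure D4:**
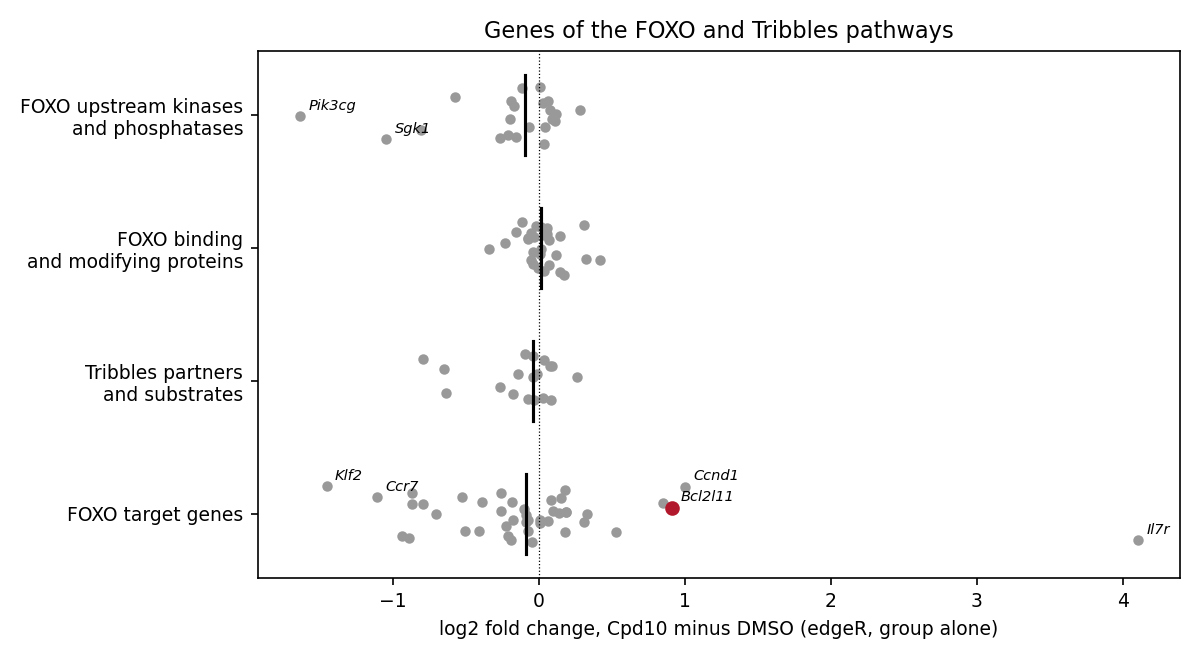
Log2 fold change (Cpd10 minus DMSO, edgeR with the group alone) of each tested gene of 4 pathway lists, with a black bar at each list's median; the filled red point is the only gene with an adjusted p under 0.05, Bcl2l11, and other names mark points beyond 1 on the log2 scale. The 4 medians lie between -0.09 and 0.01.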

How the data were processed

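Poly A RNA from 3 Cpd10 and 3 DMSO libraries was sequenced with a directional kit, per the labels' protocols. The authors deposited raw whole-number counts per Ensembl gene; the tools in the submitters' processing notes are featureCounts 2.0.6, STAR 2.7.10a and DESeq2, with build GRCm38 (mm10). The strand setting of the counting was not given in the sources used here. Symbols, positions and exon lengths came from GENCODE M21, in which 54809 of 54838 identifiers were found. Counts were tested with edgeR 4.0.16 (R 4.3.3): TMM normalisation, the filterByExpr filter, a robust quasi-likelihood fit and a call at a Benjamini-Hochberg adjusted p under 0.05. SE was taken as log2 fold change over the root of F. DESeq2 1.42.0 and limma 3.58.1 were alternatives. The edgeR fit with the group alone was also run on simulated counts that held no library sets, so that run does not test the set term, and its results are not given here. The members, gene lists and library sets were chosen with earlier results of these data known. The names given are the 5 members, other family genes, up to 4 genes with the smallest p per list, 3 genes nearest in pattern to each member, and overlapping genes. Likeness used log2 CPM (prior count 2). Protein motifs were not analysed here. A gene that the naming rule selects is not reported here.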

Additional observations from a re-analysis of the deposited data

How the results depend on the processing

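The number of genes called, 56 (48 higher and 8 lower in Cpd10), moved to 194 (124 and 70) without the low-count filter, 356 (205 and 151) with DESeq2 and 599 (351 and 248) with the library set term. Leaving out 1 library gave 0 (without Cpd10 C, where 843 genes had p under 0.05 before adjustment) to 100 (without DMSO B) with the group alone, 0 to 66 higher and 0 to 37 lower, and 130 to 907 with the set term (95 to 466 higher, 35 to 441 lower), an alternative chosen after seeing the data. Trib1 was called without the filter (log2 fold change 1.22, edgeR adjusted p = 0.0132), with DESeq2 (1.22, adjusted p = 6.28e-06) and by including the set (1.06), and Trib2 likewise (1.38, edgeR adjusted p = 0.0068; 1.38, DESeq2 adjusted p = 7.57e-05; 1.23). Without 1 library, Trib1 ran from 1.07 to 1.43 and passed only without Cpd10 A (1.43, edgeR adjusted p = 0.00567). Trib2 ran from 1.15 to 1.62 and passed in none of these fits. With the set term and without 1 library the ranges were 0.65 to 1.495 for Trib1 and 1.09 to 1.38 for Trib2. The ends of both ranges came from the fits without Cpd10 A or DMSO B, each of which compares the groups within a single set. Foxo3 turned to 0.045 without Cpd10 A, and its range over these fits was -0.29 to 0.045 with the group alone and -0.48 to -0.20 with the set term. Within set 1 and set 2, Foxo4 had 0.61 and 0.16 (0.17 to 0.61 with the set term and without 1 library), and Trib1 had 0.65 in set 1; the cause was not tested. Foxo1 was not called under any alternative, from -0.30 to -0.09.

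Libraries with the same replicate letter were not shown to be paired: their deviations from the group means correlated at 0.31, 0.43 and -0.31 across genes for A, B and C, and Cpd10 A correlated best with DMSO C. With the letter as a replicate block the number of calls was 49 (40 higher, 9 lower), and none of the 5 genes changed its call. Depth limits these genes little, since the lowest count was 268; the 3 libraries a group and their sets limit the precision.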
